A study of Rattus norvegicus with 36 samples.

Results

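Injured rat vocal fold (VF) mucosa at 60 days post-injury (PI) was compared with injured VF mucosa at 14 days PI, the interval over which a VF scar matures. The arrays were chosen by their titles: 5 arrays of 60-day-PI mucosa and 5 of 14-day-PI mucosa, 10 of the 36 arrays of the series. All rats were male Fischer 344 rats. The injured animals had both VFs stripped of mucosa at 120 days of age and were therefore 134 days old at 14 days PI and 180 days old at 60 days PI. Control VF mucosa came from naive rats of the same ages that had no surgery, with 3 arrays at 14 days and 2 at 60 days. Mucosa of 4 rats was pooled on each array, so the spread between arrays is the spread between pools. The study's methods give 4 injured and 3 control arrays at 60 days, while the array titles give 5 and 2, and the titles were followed.

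A wound first fills with provisional matrix and then with collagen laid down by fibroblasts. During remodeling, matrix synthesis falls, fibrils are crosslinked and cells leave or return to rest. In the VF the layout of collagen, elastic fibers and hyaluronan sets how the tissue vibrates. Skeletal muscle lies directly beneath the mucosa, and damaged muscle fibers regenerate through myoblasts that use embryonic and perinatal myosins before the adult forms.

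Each array gave log2 signals from the Affymetrix Rat Genome 230 2.0 array, and 14217 genes were tested with limma at a Benjamini-Hochberg adjusted p under 0.05. Differences are 60 days minus 14 days on the log2 scale, and a signal is set against the rest of the RNA on that array. Markers of the tissue were present throughout: the epithelial keratin gene Krt5 lay between 12.95 and 13.64 in the 10 PI arrays and the fibroblast gene Dcn between 13.65 and 13.97. The muscle genes Acta1 (14.13 to 14.40) and Ckm (14.29 to 14.46) were also high in every PI array, so the dissected tissue held muscle, while the thyroid gene Tg stayed between 5.24 and 5.56. In bulk RNA, fewer cells of a type and less RNA per cell cannot be told apart. The fourth 60-day-PI array stood apart. Its root-mean-square deviation from its group was 0.46 log2 units against 0.17 to 0.21 for the other 60-day-PI arrays, its Pearson's r with them was 0.9631 to 0.9713 against 0.9894 to 0.9967 for other pairs of a group, and its ribosomal and respiratory chain genes (112 genes) lay a median 0.38 log2 units below its group (-0.38). In 3-day-PI array 5 and 14-day control array 3 the same genes lay lower too (-0.55 and -0.19), and the deviations of these arrays from their groups correlated with its own across genes (Pearson's r of 0.60 and 0.45). Without 60-day-PI array 4 the list counts given below were the same except where stated, and for falls in other collagens (8 in place of 6), collagen maturation (13 for 12), elastic fibers (13 for 11), proteases (9 for 10), nerve (3 for 4), macrophages and cilia (0 for 1 in both).

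Far more genes fell than rose between 14 and 60 days PI. Of 14217 genes, 298 were differentially expressed, 262 of them lower (1.84% of the genes tested) and 36 higher (0.253%) at 60 days. Before adjustment, 1595 genes had a p under 0.05. The 5 arrays of one time did not overlap with the 5 of the other in 212 of the 262 falling genes and in 23 of the 36 rising genes, against 2.24% (lower) and 0.675% (higher) of all genes tested. The same arrays chose these genes, so the lack of overlap follows from that choice and is a description. A fall of more than 1 log2 unit was found in 66 genes and a rise of that size in 7. Without the array that stood apart, 371 genes were called, 301 lower and 70 higher. The number of rising genes depended on single arrays: it was 18 without 14-day-PI array 1, 22 without 14-day-PI array 5, 21 without 60-day-PI array 3 and 62 without 60-day-PI array 1, while the number of falling genes stayed between 193 and 301 whichever array was left out.

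The controls moved the same way in part. In the controls, 12 genes (0.0844%) were called between 14 and 60 days, 7 higher and 5 lower, and 1138 had an unadjusted p under 0.05. Of the 262 genes that fell in PI mucosa, 209 (79.8%) were also lower in control mucosa at 60 days, but the median control difference was -0.20 against -0.68 in PI mucosa. In 259 of the 262 the control fall was smaller than the PI fall or the controls did not fall. The median ratio of the control to the PI difference was 27.7%. The 262 genes were chosen for their PI fall, so a smaller control difference follows in part from that choice. An unadjusted p under 0.05 in the same direction was reached in controls by 65 of the 262 genes, where 3.02% of all genes fell at that level, and 3 of them were called in controls. Of the 36 rising genes, 22 (61.1%) were also higher in controls, with medians of 0.63 in PI and 0.18 in control mucosa. In 12 of the 36 the control rise had an unadjusted p under 0.05, where 4.98% of all genes rose at that level, and 2 were called. Over all 14217 genes, 49.0% had the same sign in both, with Pearson's r of 0.20 across genes and a slope of 0.23 of control on PI difference. The PI and control differences share no arrays, but all arrays were normalized together and genes are not independent replicates, so no p is given.

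**Figure D1:**
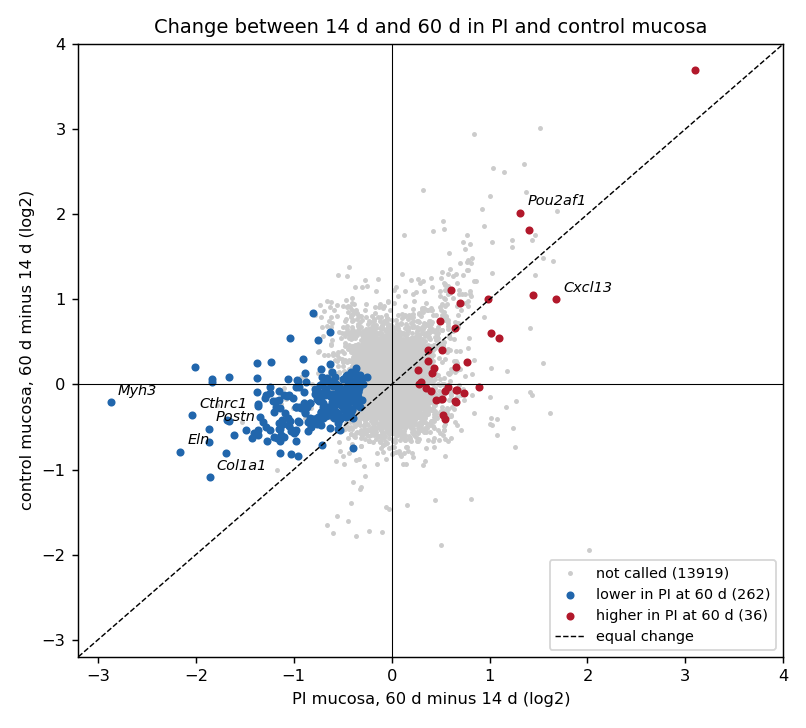
Change from 14 to 60 days in PI mucosa (x axis) and in control mucosa (y axis), both in log2 units, with a point for each of 14217 genes. Blue points are the 262 genes called lower in PI mucosa and red points the 36 called higher, and the dashed line marks equal change. Most blue points lie below 0 on the y axis but above the dashed line, while Pou2af1 lies above the line on the rising side.

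The difference between the PI and control changes was itself tested. It was called in 11 genes (0.0774%), all of them genes with a larger fall in PI mucosa, and 1010 genes had an unadjusted p under 0.05. The 8 with the largest differences of change were Myh3 (-2.66 ± 0.33, SE; adjusted p = 0.00126), Postn (-1.36 ± 0.20; 0.00471), C1qtnf6 (-1.21 ± 0.17; 0.00306), Col5a1 (-1.19 ± 0.19; 0.00984), Pxdn (-1.13 ± 0.21; 0.0389), Ltbp2 (-1.13 ± 0.21; 0.0389), Cercam (-1.01 ± 0.17; 0.0261) and Dlk1 (-1.0 ± 0.18; 0.0281). They include an embryonic myosin, matrix proteins and a peroxidase that crosslinks collagen IV (Pxdn). In C1qtnf6 the control means were 7.02 and 6.98 at 14 and 60 days while the PI means were 8.16 and 6.92. In Pxdn the control means were 9.42 and 9.19 and the PI means 10.87 and 9.51. Cercam gave 7.82 and 7.62 in controls against 8.46 and 7.25 in PI mucosa, and Dlk1, a Notch ligand-like protein of immature cells, gave 5.74 and 5.78 against 6.56 and 5.59. This count rested on few control arrays: it was 41 without 60-day control array 1 and 7 without the other. It was 7, 5 and 3 without 14-day control arrays 1, 2 and 3, 17 without 60-day-PI array 4, 5 without 60-day-PI array 3 or 5, and 6 without 14-day-PI array 5.

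Arrays at 3 days PI enter neither mean of the comparison of 60 with 14 days and show where the falling genes stood early. They do share the estimate of spread, and 232 genes were called in place of 298 when the fit held only the 15 arrays at 14 and 60 days. Of the 262 falling genes, 160 (61.1%) were higher in PI than in control mucosa at 3 days and 31 (11.8%) were lower, against 14.5% and 12% of all genes. Of the 36 rising genes, 4 (11.1%) were higher and 13 (36.1%) lower at 3 days. The PI-minus-control level of the falling genes had medians of 0.54 at 3 days, 0.42 at 14 days and -0.09 at 60 days. The 14- and 60-day levels come from the arrays that chose these genes and are a description. At 60 days none of the 298 genes was called between PI and control mucosa, where 3 of all genes were called higher and 4 lower. That test set 5 PI arrays against 2 control arrays, so a gene not called is not shown to be at the control level. The study, using another model, reported Ltbp2, Myh3, Myod1 and Casq2, which are among the 298, as differentially expressed at 60 days PI. Of the 262 falling genes, 99 had a higher mean in PI than in control mucosa at 60 days, where 5941 of all 14217 genes did.

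Among the lists, genes for the extracellular matrix made up the largest group of falls. Of the 262 falling genes, 103 were in any list and the rest in none. Of the 140 measured members of 7 matrix lists, 57 (40.7%) fell, beside 1.84% of all genes, and 62 fell without the array that stood apart. Over whole lists, called or not, the median was -0.85 in PI and -0.54 in control mucosa for 11 fibrillar collagens, -0.39 and -0.16 for 21 elastic fiber genes and -0.24 and -0.10 for 26 basement membrane genes, against -0.01 and 0.02 for all genes. The 57 that fell had a median of -0.86 in PI and -0.38 in control mucosa. In the controls 54 of the 57 were lower at 60 days and 27 had an unadjusted p under 0.05. At 60 days 21 of the 57 had a PI mean above the control mean, where 5941 of all 14217 genes did. All 6 fibrillar collagen genes that fell are shown by their differences: Col5a1 (-1.87), Col1a1 (-1.86), Col5a2 (-1.37), Col1a2 (-1.17), Col5a3 (-1.10) and Col3a1 (-0.85). These encode the chains of collagens I, III and V, the fibrils of scar and lamina propria. The 5 other fibrillar collagen genes of the list were not called.

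Promoters of 3 falling genes are printed as examples of the sequence upstream of a matrix gene, a muscle gene and an interferon-response gene. Each is the 100 bases before the annotated transcription start in RefSeq on build GRCr8, 5′ to 3′ on the gene's strand, with the letters TATAAA in capitals.
Postn, chr2:140677961-140678060, plus strand: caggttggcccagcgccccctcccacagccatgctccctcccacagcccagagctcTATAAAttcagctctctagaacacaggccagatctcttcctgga
Myh3, chr10:52269085-52269184, plus strand: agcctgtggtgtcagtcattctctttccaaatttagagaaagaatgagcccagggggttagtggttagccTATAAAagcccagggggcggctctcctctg
Cxcl11, chr14:15973628-15973727, plus strand: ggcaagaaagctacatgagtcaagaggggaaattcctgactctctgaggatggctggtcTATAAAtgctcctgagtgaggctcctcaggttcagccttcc
The letters begin 44, 30 and 41 bases before the start in Postn, Myh3 and Cxcl11, all 3 printed because they hold them. Promoter windows of 300 bases, from 250 before to 50 after the start, were matched for 191 of the 262 falling genes, and 20 (10.5%) hold TATAAA on either strand. The share was 8.45% among the 11734 matched promoters of genes tested and 14.2% among all 33469 promoters of the table. CCAAT was in 35.6% of the falling genes' promoters and 37.3% of those of genes tested, and CACGTG, the E-box, in 4.71% and 8.91%. TTTGAA was in 11.5% and 12.3%, TAGGTCA in 2.62% and 1.79%, and TTATGTAA or TTACGTAA in 0.524% and 0.673%. These are letter matches and not binding sites.

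Postn encodes periostin, a matricellular protein of healing wounds. Its signal was 12.45, 12.17, 12.43, 12.12 and 12.47 in the 14-day-PI arrays and 10.39, 10.42, 10.55, 10.75 and 10.18 in the 60-day-PI arrays. All 5 later arrays lay below all 5 earlier ones, at 10.18 to 10.75 where the 60-day controls were 10.35 and 10.73. The difference was -1.87 ± 0.11 (SE), 3.66-fold lower (adjusted p = 1.67e-09), against -0.52 ± 0.16 in controls. Col5a1, which nucleates collagen fibrils, was 11.22, 11.37, 11.57, 11.57 and 11.37 at 14 days PI and 9.82, 9.44, 9.36, 9.74 and 9.39 at 60 days PI. Its controls also fell, from 10.49, 10.34 and 10.21 to 9.59 and 9.74, a smaller step than in PI mucosa. Its PI difference had an adjusted p of 1.1e-09.

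Col1a1, the main chain of collagen I, was also called in controls. Its 14-day-PI arrays read 12.72, 12.52, 13.15, 12.99 and 13.10 and its 60-day-PI arrays 11.34, 11.08, 11.11, 10.87 and 10.81 (-1.86 ± 0.13; adjusted p = 2.42e-08). The controls went from 11.94, 11.56 and 11.38 to 10.57 and 10.50 (-1.09 ± 0.19; adjusted p = 0.0422). Neither pair of groups overlapped, and the fall in controls was 2.12-fold against 3.62-fold in PI mucosa. The difference between these changes was -0.77 ± 0.23 and was not called (adjusted p = 0.397). Eln, the gene of elastin, was 11.46, 11.38, 12.21, 12.28 and 12.14 at 14 days PI and 9.99, 9.88, 9.59, 9.51 and 9.69 at 60 days PI (-2.16 ± 0.16; adjusted p = 4.14e-08). Its control values were 11.12, 10.79 and 10.44, then 9.92 and 10.06. The 60-day-PI arrays of Eln ran from 9.51 to 9.99, below or among the controls of that age. A dimmer second probe set for Eln gave -0.65 (adjusted p = 0.441 over all probe sets).

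Ltbp2, a microfibril protein that binds latent growth factor complexes, differed in where it ended. At 14 days it read 10.01, 9.93, 10.26, 10.50 and 10.18 in PI mucosa and 10.04, 9.86 and 9.74 in controls, and the 60-day controls read 9.70 and 9.74. The 60-day-PI arrays read 8.70, 8.97, 8.88, 9.02 and 8.86, below every control array. Its PI difference was -1.29 ± 0.12 (adjusted p = 5.47e-07) and its control difference -0.16 ± 0.17. Cthrc1, a secreted collagen-regulating protein of injured tissue, was 10.91, 10.49, 10.98, 10.44 and 11.00 at 14 days PI and 9.22, 9.06, 9.09, 7.58 and 8.70 at 60 days PI (-2.04 ± 0.23; adjusted p = 6.24e-06). The lowest of its 60-day values, 7.58, is from the array that stood apart.

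**Figure D2:**
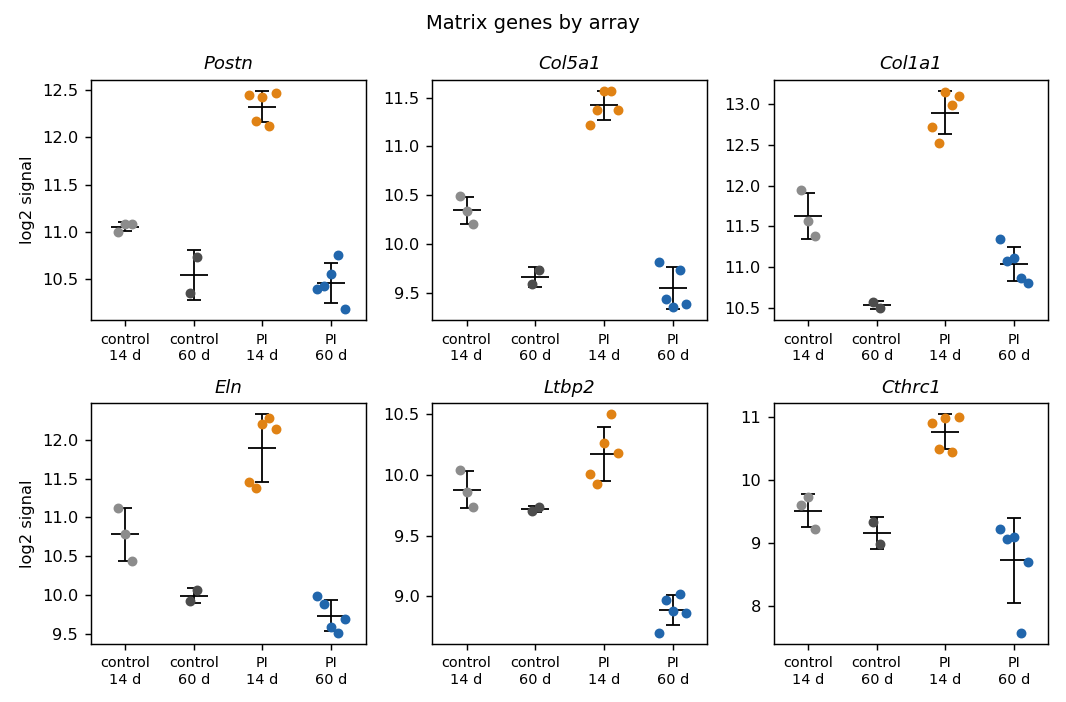
Log2 signal of 6 matrix genes in each array (points), and black bars give group mean and SD: 3 and 2 control arrays and 5 and 5 PI arrays at 14 and 60 days. The 60-day-PI arrays lie below all 14-day-PI arrays in every panel, and those of Ltbp2 (8.70 to 9.02) also lie below every control array.

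Other collagens and their processing enzymes fell as well. Among 22 other collagens of the fibril surface, microfibrils and transmembrane types, 6 fell and none rose, although the median of the whole list was -0.29 in PI and -0.39 in control mucosa. The 6 were Col6a3 (-1.41; -0.57 in controls), Col6a2 (-1.34; -0.38), Col6a1 (-1.15; -0.52), Col6a6 (-1.02; -0.54), Col14a1 (-0.86; -0.26) and Col15a1 (-0.83; -0.39). The first 4 are chains of collagen VI, which forms beaded microfilaments around cells. Of 25 genes of collagen maturation, 12 fell and 1 rose, with a list median of -0.46 in PI and -0.14 in control mucosa. Falls included the lysyl oxidases Loxl2 (-1.24; adjusted p = 7.96e-05), Lox (-0.98; 0.000551) and Loxl1 (-0.98; 1.6e-05), which crosslink collagen and elastin, and Sparc (-1.13; 8.92e-07), a collagen-binding protein. Serpinh1, the collagen chaperone, differed by -0.77. PCOLCE2, an enhancer of procollagen cleavage, was the gene that rose (0.65; adjusted p = 0.0302), a call lost without 14-day-PI array 2 or 5 or without 60-day-PI array 1, 3, 4 or 5.

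Of 26 basement membrane genes, 12 fell, and the same number was called whichever array was left out. The largest falls were in collagen IV chains: Col4a2 (-1.36; adjusted p = 4.64e-06), Col4a1 (-1.28; 5.47e-07), Col4a5 (-1.14; 5.69e-07) and Col4a6 (-1.03; 0.00051). In controls these differed by -0.25, -0.50, -0.66 and -0.55. The nidogens Nid1 (-0.96) and Nid2 (-0.82), the laminin chains Lama2 (-0.79), Lamb1 (-0.78), Lama4 (-0.73) and Lamc1 (-0.70), perlecan (Hspg2, -0.76) and Col18a1 (-0.55) made up the rest. The control differences were near 0 for Lama4 (-0.01), Hspg2 (-0.06) and Col18a1 (-0.08).

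Elastic fiber genes were lower in 19 of 21 cases, beside 53.3% of all genes, and 11 of the 21 fell. Beside Eln and Ltbp2 these were Mfap2 (-1.37; adjusted p = 0.000329), Fbn2 (-1.27; 0.000492), Fbn1 (-1.14), Mfap4 (-1.04), Mfap5 (-0.64), Emilin1 (-0.60), Fbln5 (-0.55), Ltbp1 (-0.47) and Fbln2 (-0.39), which build the microfibrils and join elastin to them. Of 22 matricellular and provisional matrix genes, 6 fell. With Postn and Cthrc1 these were Thbs2 (-0.87; adjusted p = 0.000551), Tnc (-0.83; 0.0494), Thbs3 (-0.59) and Ccn4 (-0.39). Tnc, a protein of early wounds, lost its call in 11 of the 15 fits that left out an array. Of 13 small leucine-rich proteoglycans, 4 fell: Aspn (-1.20; adjusted p = 0.000492), Ecm2 (-0.55; 0.0144), Bgn (-0.51; 0.00624) and Tsku (-0.36; 0.045). This count was 2 without 60-day-PI array 5, and Tsku lost its call in 10 of those 15 fits.

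Genes of matrix-cutting proteases also fell. Of 41 proteases and inhibitors, 10 fell, led by Adamts12 (-1.43; adjusted p = 1.71e-06) and Adamts15 (-1.0; 9.99e-06), and including Adamts9 (-0.70; 0.00338), Mmp2 (-0.69), Mmp16 (-0.68), Mmp14 (-0.63), Fap (-0.60), Mmp23 (-0.60), Adamts5 (-0.58) and Mmp17 (-0.41). The 10 of 41 (24.4%) stood beside 1.84% of all genes called lower. The median of all 41 was -0.20 in PI and -0.03 in control mucosa. A dimmer second probe set for Adamts9 gave 0.09. Mmp7, an epithelial protease, was the member that rose, at 6.40, 6.68, 6.86, 6.30 and 6.35 at 14 days PI and 8.39, 8.73, 8.09, 6.82 and 7.75 at 60 days PI. Its groups overlapped through the fourth 60-day array (1.44 ± 0.36; adjusted p = 0.0404), its controls differed by 1.05, and the call was lost in 12 of the 15 fits.

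Other fibroblast lists held few called genes, where 53.3% of all genes were lower and 1.84% called lower. Of 25 myofibroblast genes, 23 were lower but 1 fell, the collagen-binding integrin Itga11 (-0.64; adjusted p = 0.0118), with 3 called without 14-day-PI array 2 or 60-day-PI array 2, and 2 without 60-day-PI array 4 or either 60-day control. Of 38 genes of TGFβ, BMP and activin signaling, 2 fell, Fstl1 (-0.95; adjusted p = 7.74e-08) and the activin antagonist Fst (-0.70; 0.000165), and 4 fell without 60-day-PI array 4. Smad9, a BMP signal transducer that the list does not hold, rose by 0.74 (adjusted p = 0.0116), with a second probe set at 0.24. None of 21 hyaluronan genes was called by limma, and the most abundant were Cd44 (0.19; adjusted p = 0.651) and Ugdh (0.01; 0.966). C1qtnf3, a secreted protein of fibroblasts and chondrocytes, fell by 1.49 on the log2 scale (-1.49; adjusted p = 1.04e-05). Mest and Fndc3c1 fell by 1.68 and 1.69 (adjusted p = 1.29e-07 and 0.000117), against -0.42 and -0.80 in controls.

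Cartilage genes varied between arrays and touch the collagen lists, which hold collagens of cartilage. Of 21 cartilage genes, 20 were higher at 60 days PI, beside 46.7% of all genes, and none was called by limma. The list median difference was 0.71 in PI and -0.27 in control mucosa. The list's median signal was between 6.27 and 7.52 in the 14-day-PI arrays and 7.52, 6.39, 8.46, 8.73 and 8.29 in the 60-day-PI arrays, so it was high in 3 of the 5. Its defining members Acan, Matn1 and Col2a1 reached 10.42, 8.73 and 6.23 at 60 days PI against 8.07, 6.79 and 5.73 at 14 days. The most abundant members by mean were Cytl1 (1.41; adjusted p = 0.526) and Fgfr3 (0.30; 0.27). Col10a1, a collagen of cartilage, had the highest difference of the 22 other collagens, 2.02, and was not called, and a cartilage gene count of 2 was reached without 60-day-PI array 2. The part of cartilage in the matrix results was not tested.

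Muscle genes of regeneration fell in PI mucosa, and none was called in controls. Of 25 regeneration genes, 9 fell and none rose, and of 41 genes of mature muscle 4 fell. Together 13 of 66 (19.7%) fell, beside 1.84% of all genes, and the 13 had a median of -1.38 in PI and 0.04 in control mucosa. The median of all 25 regeneration genes was -0.58 in PI and -0.09 in control mucosa. In controls 5 of the 13 were lower and 1 had an unadjusted p under 0.05. No PI array of one time overlapped with the other in any of the 13. The same arrays chose these genes, and 212 of all 262 falling genes had no overlap. At 3 days 11 of the 13 were higher and 1 lower in PI than in control mucosa. Of all falling genes, 61.1% were higher and 11.8% lower at 3 days, against 14.5% and 12% of all genes.

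Myh3, the embryonic myosin heavy chain, had the largest fall of all genes. It was 10.68, 10.26, 9.73, 9.94 and 10.00 at 14 days PI and 7.86, 7.21, 6.61, 7.32 and 7.28 at 60 days PI. The controls lay at 6.19, 6.51 and 6.15, then 6.10 and 6.07, so that every 60-day-PI array remained above every control array. The PI difference was -2.87 ± 0.19, 7.3-fold lower (adjusted p = 5.96e-09), and the control difference -0.21 ± 0.27. Myh8, the perinatal myosin heavy chain, was 12.43, 12.29, 11.70, 12.55 and 12 at 14 days PI and 10.48, 10.07, 10.28, 10.71 and 10.30 at 60 days PI (-1.83 ± 0.21; adjusted p = 1.15e-05). Its 60-day controls were 9.83 and 10.40, 1 below and 1 within the range of the 60-day-PI arrays. The control difference was 0.06 ± 0.31, and the difference between the changes, -1.89 ± 0.37, was not called (adjusted p = 0.0533).

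Myoblast regulators and early sarcomere genes fell beside them. These were Tnni1 (-1.66; adjusted p = 0.000166), the slow troponin I, Atp1b4 (-1.66; 0.000761), the myogenic factors Myog (-1.38) and Myod1 (-1.14; 0.000937), Tnnt2 (-1.04), the fusion protein gene Mymk (-0.97) and Dlk1 (-0.96; 2.49e-06). In controls these ranged from -0.80 in Myod1 and -0.43 in Atp1b4 to 0.54 in Tnnt2. Myod1 was 8.30, 7.76, 7.41, 7.98 and 7.60 at 14 days PI, 7.14, 6.58, 6.61, 6.13 and 6.90 at 60 days PI, and 6.13, 6.27 and 6.40, then 5.14 and 5.79 in controls. Its PI arrays stood above the controls of the same age at both times.

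The 4 mature muscle genes that fell encode slow or cardiac isoforms and a calcium store. Tnnc1, slow and cardiac troponin C, was 9.76, 9.06, 9.09, 9.09 and 9.77 at 14 days PI and 7.78, 7.85, 7.27, 6.56 and 7.26 at 60 days PI (-2.01 ± 0.28; adjusted p = 0.000123). Myh7, the slow myosin heavy chain, was 5.39, 6.14, 5.64, 5.48 and 6.55 and then 4.00, 4.56, 3.82, 3.99 and 3.69 (-1.83 ± 0.21; adjusted p = 9.99e-06). Its control arrays all lay between 3.85 and 4.07, the level that 4 of the 5 60-day-PI arrays had reached or passed. These control signals are low on a scale that starts at 2.72, so reaching them does not show a return to control expression. Myl2, a slow and cardiac myosin light chain, differed by -1.38 (adjusted p = 0.00206) and Casq2, cardiac calsequestrin, by -1.05 (9.33e-05). Dimmer second probe sets gave -0.14 for Myh7 and 0.08 for Myl2. The other 37 mature muscle genes were not called, and the list's median was 0.01 in PI and -0.37 in control mucosa. The muscle list's median signal was 11.18 to 11.92 in the 14-day-PI arrays and 11.42 to 12.17 in the 60-day-PI arrays.

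**Figure D3:**
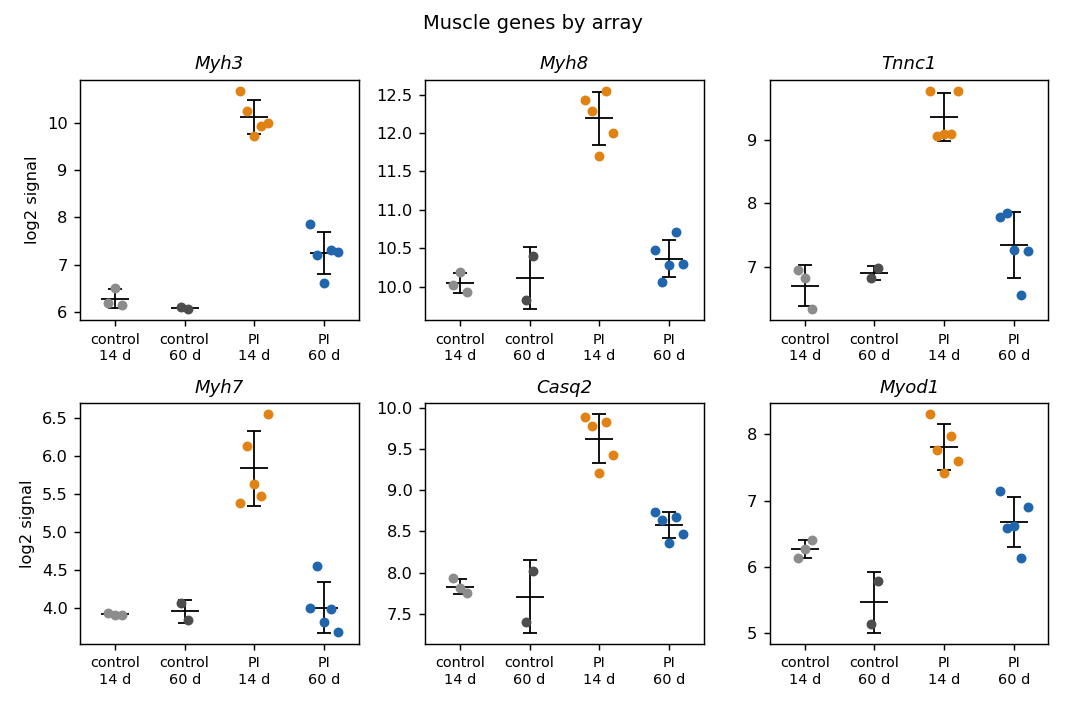
Log2 signal of 6 muscle genes in each array (points), and black bars give group mean and SD: 3 and 2 control arrays and 5 and 5 PI arrays at 14 and 60 days. The PI arrays fell at 60 days in every panel, and Myh3 at 60 days PI (6.61 to 7.86) still lay above its controls (6.07 to 6.51).

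Several B cell genes rose in PI mucosa and were also higher in controls. Of 35 lymphocyte and plasma cell genes, 3 rose and none fell in PI mucosa, beside 0.253% of all genes called higher. Called or not, 22 were higher and 13 lower at 60 days PI, beside 46.7% of all genes higher. The list's median was 0.23 in PI and 0.38 in control mucosa. In the list 5 rose without 60-day-PI array 4 or without either 60-day control array. Pou2af1, a B cell coactivator, was 5.79, 6.06, 6.72, 6.24 and 6.63 at 14 days PI and 8.03, 8.19, 6.79, 7.07 and 7.89 at 60 days PI (1.31 ± 0.23; adjusted p = 0.00175). In controls it rose from 5.6, 5.56 and 5.56 to 7.93 and 7.24 (2.02 ± 0.33; adjusted p = 0.0422), to a mean of 7.59 equal to that of PI mucosa. Ms4a1, which encodes CD20, was 5.34, 5.02, 5.50, 5.44 and 5.31 and then 6.26, 6.67, 5.75, 6.56 and 6.42 (1.01 ± 0.14; adjusted p = 0.000128), with a control difference of 0.60 ± 0.20. The B cell receptor gene Cd79b rose by 0.51 (adjusted p = 0.00302; 0.41 in controls). Its signal was low, between 4.98 and 5.79 in the PI arrays, on a scale that starts at 2.72.

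Chemotactic and antibody genes followed. Cxcl13, the chemokine that draws B cells, was 7.87, 7.02, 8.39, 7.32 and 7.06 at 14 days PI and 9.04, 9.90, 9.14, 8.85 and 9.15 at 60 days PI (1.68 ± 0.34, 3.21-fold higher; adjusted p = 0.00624). Its controls were 8.54, 8.51 and 8.28 and then 10.19 and 8.71 (1.00 ± 0.49), so that PI mucosa at 14 days lay below the controls of that age in 4 of 5 arrays. Ccr6, a receptor on B cells and dendritic cells, rose by 0.61 (adjusted p = 0.0269) in PI and by 1.11 (0.0422) in control mucosa. Its PI call was lost in 6 of the 15 fits that left out an array. The plasma cell genes Jchain, which joins antibody units, and Iglc1, a light chain constant region, were called in controls and not in PI mucosa: Jchain at 2.94 ± 0.53 (adjusted p = 0.0422) against 0.84 ± 0.37 in PI mucosa (0.378), and Iglc1 at 2.50 ± 0.47 (0.0422) against 1.15 ± 0.33 (0.0772). Without 60-day-PI array 4 Iglc1 was called in PI mucosa as well (1.48; adjusted p = 0.00272). The differences between those changes were not called (adjusted p = 0.397 and 0.619). Jchain in controls went from 9.49, 9.53 and 8.80 to 12.31 and 12.11, while in PI mucosa it was already 10.53 to 11.67 at 14 days and 10.61 to 12.71 at 60 days. Ighl2 was named after its values were seen because it had the largest rise of all genes. It ran from 6.86 to 10.47 at 14 days PI and from 8.93 to 12.42 at 60 days PI (3.10 ± 0.71; adjusted p = 0.02). Its groups overlapped, its control difference was 3.69 ± 1.03, and its PI call was lost in 4 of the 15 fits.

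Other genes called in controls were the protease gene Prss30 (2.54; 1.04 in PI), the nucleotidase gene Entpd8 (0.89; 0.22) and the monoamine transporter gene Slc18a2 (-0.79; 0.04), each with an adjusted p of 0.0422 in controls and none called in PI mucosa. The control count of 12 fell to 0 without any one of the 3 14-day control arrays, without 14-day-PI array 1 or 3 or without 60-day-PI array 5. It was 1 without 60-day-PI array 3, 7 without 60-day-PI array 1 or 60-day control array 1, 22 without 60-day control array 2 and 29 without 60-day-PI array 4.

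Acute inflammation genes were higher in both tissues. Of 33 such genes, 28 were higher in PI mucosa and 2 rose, beside 46.7% of all genes higher and 0.253% called higher. The 2 were Serpina3n (1.10; adjusted p = 0.0229), an acute phase protease inhibitor, and Sele (0.98; 0.0329), the endothelial selectin. The list's median was 0.40 in PI and 0.42 in control mucosa. Sele was 7.22 in 60-day-PI array 4 and between 5.81 and 5.97 in the other 4, and kept its call without that array (0.71; adjusted p = 0.045). Both calls were lost without 14-day-PI array 2 or 4 or 60-day-PI array 3, and 1 of the 2 without 14-day-PI array 1, 3 or 5. Birc3, an inhibitor of apoptosis induced by inflammation, rose by 0.70 (adjusted p = 0.036; 0.96 in controls). Its call was lost in 6 of the 15 fits that left out an array, with an adjusted p of 0.0685 without 60-day-PI array 4.

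Interferon-response genes fell in PI mucosa. Of 35, 31 were lower and 6 fell, beside 53.3% of all genes lower and 1.84% called lower, with a list median of -0.39 in PI and 0.06 in control mucosa. The 6 were Mx2 (-1.61; adjusted p = 0.0093), Cxcl11 (-1.24; 0.0338), Mx1 (-1.03; 0.0163), Usp18 (-0.90; 0.0193), Herc6 (-0.66) and Rig1 (-0.56), which are antiviral effectors and sensors, a chemokine and regulators of the response. Mx2 was 8.85, 7.74, 7.0, 8.06 and 9.22 at 14 days PI and 6.56, 6.89, 6.34, 6.62 and 6.41 at 60 days PI, where the controls were 6.50 and 6.58. Cxcl11 was 7.18, 8.07, 6.74, 7.18 and 8.93 and then 6.48, 6.54, 6.28, 6.24 and 6.34. The 14-day arrays differed among themselves: array 5 had the highest signal of Mx2, Cxcl11 and Usp18 and array 3 the lowest of Mx2 and Cxcl11. The count was 1 without 14-day-PI array 5, 13 without 14-day-PI array 3, 3 without 60-day-PI array 3 and 2 without 60-day-PI array 5. A very dim second probe set for Mx2 gave 0.07.

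**Figure D4:**
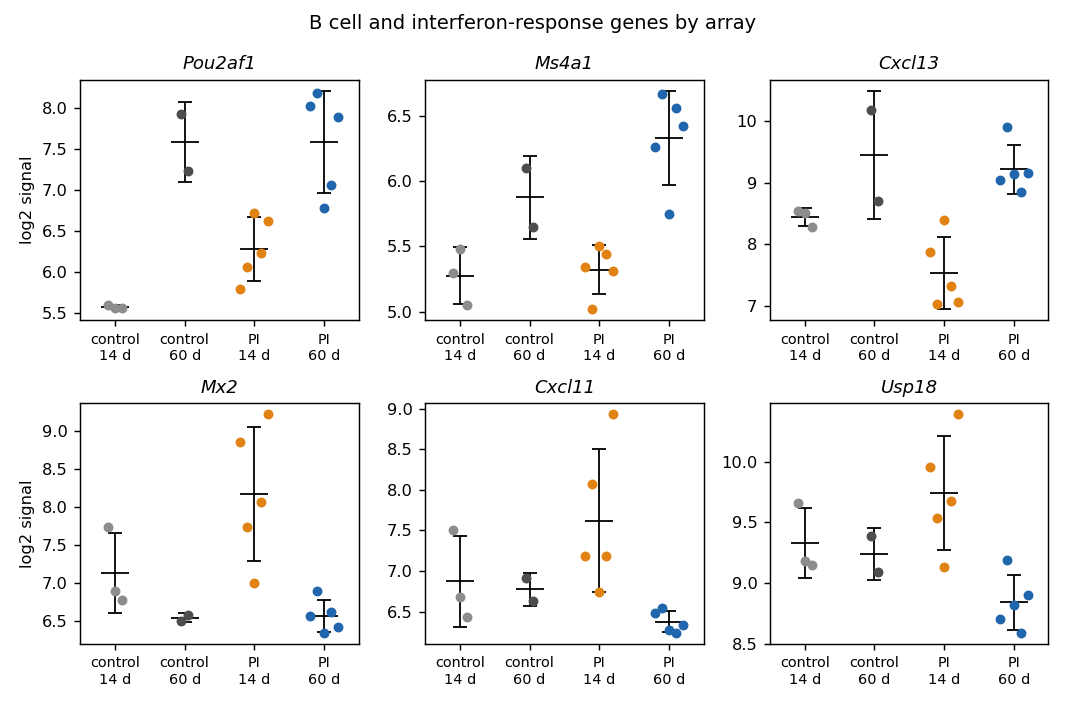
Log2 signal of 3 B cell genes (top) and 3 interferon-response genes (bottom) in each array (points), and black bars give group mean and SD: 3 and 2 control arrays and 5 and 5 PI arrays at 14 and 60 days. Pou2af1 rose to a mean of 7.59 in control and in PI mucosa, and Mx2 at 14 days PI spread from 7.0 to 9.22 before it fell to between 6.34 and 6.89.

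Cells of vessels and nerves showed smaller groups of falls, beside 1.84% of all genes called lower and 0.253% called higher. Of 37 endothelial genes, 5 fell in the full set and whichever array was left out: Apln (-0.98; adjusted p = 6e-05), a peptide of growing vessels, the lymphatic regulator Prox1 (-0.88; 0.000263), the junction gene Cldn5 (-0.68; 0.00603), the vessel destabilizer Angpt2 (-0.67; 0.0136) and Mcam (-0.52). In controls Apln differed by -0.53, Mcam by -0.09 and Prox1 by 0.13. The general endothelial marker Pecam1 was not called (-0.18; adjusted p = 0.602), and a dimmer second probe set for Prox1 gave 0.05. Of 25 Schwann cell and nerve genes, 4 fell: Mbp (-1.12; adjusted p = 0.00241), Gfap (-0.96; 0.0491), Pmp22 (-0.47; 0.0302) and Cnp (-0.32). Gfra1, a receptor of a nerve growth factor family, rose (0.58; 0.00902). Gfap lost its call in 13 of the 15 fits that left out an array and Pmp22 in 7. The nerve count was 1 without 14-day-PI array 1 or 4 or 60-day-PI array 5, and 2 without 14-day-PI array 5 or 60-day-PI array 3. The brightest of 3 Mbp probe sets gave 0.12.

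Few genes of epithelium and its secretions were called, where 1.84% of all genes were called lower and 0.253% higher. Of all genes, 46.7% were higher and 53.3% lower at 60 days PI. None of 47 genes of stratified epithelium was called by limma, though 40 were higher at 60 days PI. The list's median was 0.24 in both tissues, and the most abundant genes were Krt15 (0.06; adjusted p = 0.811) and Krt5 (0.22; 0.401). A single gene of the list was called without 14-day-PI array 5 or without 60-day-PI array 1, 2 or 4. All 35 measured genes of a cilia list were lower at 60 days PI, by a median of -0.35, while all 35 were higher in controls, by a median of 0.74. Armc3 was the member called (-0.80; adjusted p = 0.0269; 0.84 in controls), a call lost in 5 of the 15 fits. The difference between its changes was -1.64 and was not called (adjusted p = 0.0623). The list's median signal was 8.42 to 9.03 in the 14-day-PI arrays, 7.96 to 8.77 in the 60-day-PI arrays, 7.58 to 7.74 in the 14-day controls and 7.68 and 9.03 in the 60-day controls, so the 2 control arrays at 60 days lay far apart. Of 49 gland genes, 1 fell, Klk1, a kallikrein (-1.38; adjusted p = 0.000492), near the share of all genes called lower. Cldn1, an epithelial tight junction gene, rose by 0.66 (0.0395), but its brightest probe set was not called (0.47; 0.246), and the call was lost in 9 of the 15 fits.

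The remaining rises by the size of the difference were Rab27b (0.89; adjusted p = 0.0398), a regulator of secretion, Spetex2l2 (0.66; 0.00683), the organic anion transporter Slco1a4 (0.66; 0.046), Fmo1 (0.55; 0.00929), a flavin monooxygenase, and Mreg (0.52; 0.0268). All 5 had control differences at or below 0, from -0.36 in Mreg to -0.03 in Rab27b. Rab27b was 10.26 in 60-day-PI array 4 against 8.93 to 9.27 in the others and had an adjusted p of 0.066 without it. Rab27b lost its call in 9 of the 15 fits that left out an array, Slco1a4 in 12 and Mreg in 4. Single falls in other lists were Car3 (-1.07; adjusted p = 0.00762), a carbonic anhydrase of fat and muscle, Vtn (-0.56; 0.0164), vitronectin, and Apoe (-0.40; 0.0432), the apolipoprotein of macrophages and lipid transport. Apoe lost its call in 12 of the 15 fits and Vtn without 14-day-PI array 4 or 60-day-PI array 5. Each of these 3 was the single call of its list, beside 1.84% of all genes called lower. Of 25 macrophage genes, 22 were lower at 60 days PI, beside 53.3% of all genes. The macrophage list's median was -0.29 in PI and 0.14 in control mucosa.

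Many lists held no gene that limma called. Cell division genes were higher in 32 of 35 cases, beside 46.7% of all genes, by a median of 0.11 (0.32 in controls). Aurkb was at -0.61 and Kif23 at 0.41. DNA replication genes had a median of 0.01, with Dut at -0.09 and Pcna at -0.08. Class II antigen presentation genes (15) had a median of -0.06 in PI and 0.45 in control mucosa, with Cd74 at -0.14 and RT1-Da at -0.05. Mast cell genes (18) had medians of -0.04 and -0.81, with Mcpt1 at -0.31 and Srgn at 0.12. Clock activators gave Clock 0.03 and Cry1 -0.08, clock repressors and outputs Nr1d2 0.39 and Tsc22d3 -0.12, and immediate early genes Dusp1 0.16 and Klf4 0.11. Folding enzymes gave Hspa5 -0.11 and Pdia3 -0.06, and lipid synthesis genes Acly 0.03 and Elovl5 0.02. Thyroid genes (Duox2 0.36, Nkx2-1 0.08) and red cell genes (Hbb -0.37, Alas2 -0.48) were not called, nor were the respiratory chain genes (Atp5f1b -0.05, Atp5mc3 -0.04) and ribosomal protein genes (Rps6 -0.03, Rps29 0.02). Adjusted p was between 0.244 and 0.946 for all of these genes. A further list of 17 measured genes was put together with results of these same arrays in view and is not independent evidence, and 4 of them fell between 14 and 60 days PI: Myh3, Ltbp2, Myod1 and Casq2.

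**Figure D5:**
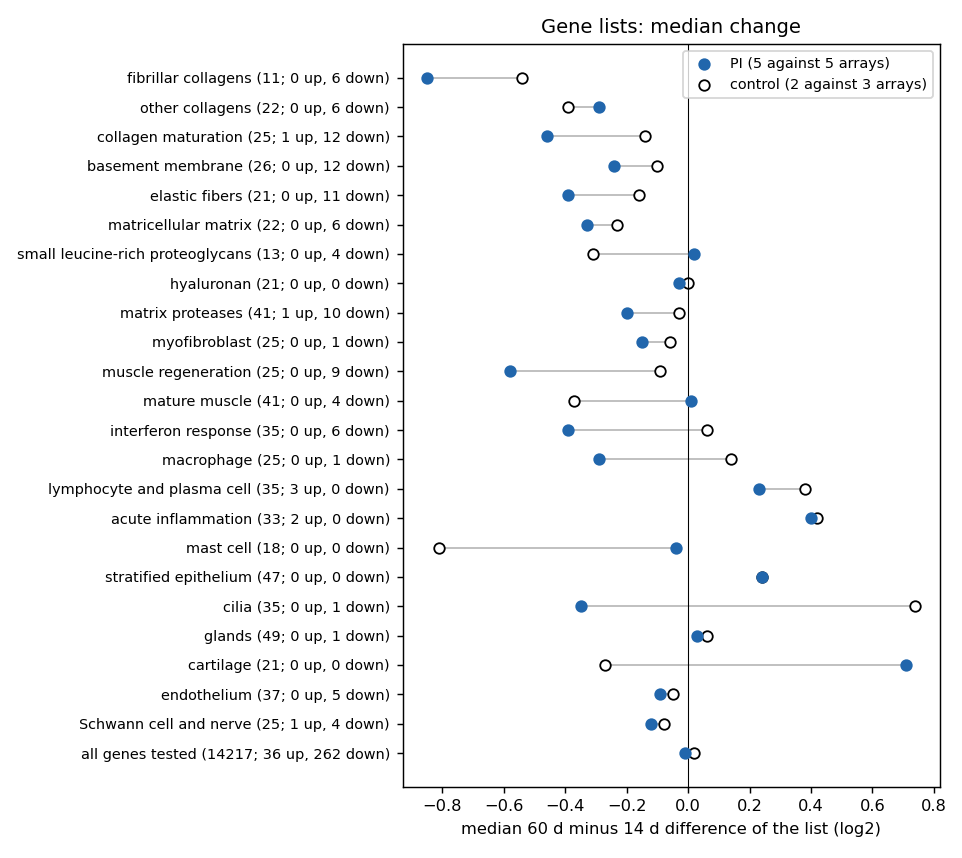
Median 60-minus-14-day difference (x axis, log2) of 23 gene lists and of all genes in PI mucosa (filled) and control mucosa (open), with the measured genes and the number called up and down in PI mucosa in each label. Collagen, basement membrane, elastic fiber and matricellular lists lie below 0 in both tissues, small leucine-rich proteoglycans at 0.02 in PI and -0.31 in control mucosa, muscle regeneration (-0.58 against -0.09) and interferon response (-0.39 against 0.06) lie further below 0 in PI mucosa, and cilia (-0.35 against 0.74) and cartilage (0.71 against -0.27) lie on opposite sides of 0.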

How the data were processed

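The authors summarized the probes by RMA and deposited log2 signals (the labels name RMA and affy, with versions not given in the sources used here). The deposited values ran from 2.72 to 14.74, and sorted values of all 36 arrays differed by at most 0.03, so shifts common to all genes cannot be seen. After removal of 57 control probe sets, 31042 remained, of which 20826 had 1 gene symbol in the platform annotation, 436 several and 9780 none. They stood for 14217 genes, each represented, as in the methods, by its probe set of median rank in mean signal. Symbols were updated by gene number for 20758 probe sets and by accession for 2, and 66 were kept. One limma 3.58.1 fit (R 4.3.3) of 6 groups over the 23 mucosa arrays gave all differences, SE and Benjamini-Hochberg adjusted p. It was also run on simulated data with independent noise for each gene and no array that stood apart. That run does not show how the fit behaves with such arrays. The number of arrays and the spread between pools limit the precision. Where nothing says that pools were separate litters or cohorts, p-values measure the spread between these pools. The promoters came from RefSeq (GRCr8). Genes were named as the 15 largest rises and 15 largest falls without overlap of groups, 4 or fewer called genes per list over 39 lists (where none was called, the 2 of highest mean), and up to 8 genes called in controls and in the difference, and further called list members are given by their difference. The lists and the comparison were chosen with earlier results of these data known. Array numbers did not pair the arrays (Pearson's r of deviations -0.02, -0.28, 0.28, -0.19 and -0.01 in PI, 0.06 and -0.18 in controls). Alternatives were other samples in the fit, weights, scaling, probe sets, a filter, variance models, an EBarrays-style lognormal-normal model, a replicate block and leaving out arrays. Python 3.11.15 and matplotlib 3.10.9 made the plots. The fibroblast arrays were not analysed here.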

Additional observations from a re-analysis of the deposited data

Results flagged for a closer look

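In 15 of 240 groups of 5 PI arrays tested, a single array lay far from the others of its group, where chance alone gives about 1 in 20. In 10 of them it was 60-day-PI array 4, which held the highest or lowest signal of Birc3 (9.72), Cd44 (12.15), Cd74 (12.79), Clock (10.09), Dut (10.40), Lox (10.96), Pcna (11.05), Rab27b (10.26), Rps6 (14.13) and Sele (7.22). The others were Col4a2 in 14-day-PI array 4 (10.85), Col4a5 in 14-day-PI array 3 (12.33), Entpd8 in 14-day-PI array 2 (6.94), Klf4 in 14-day-PI array 1 (11.40) and Cxcl13 in 60-day-PI array 2 (9.90).

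The change from 14 to 60 days differed between PI and control mucosa, by the contrast of the 2 changes in limma, in 11 genes. The differences were -2.66 for Myh3, -1.36 for Postn, -1.21 for C1qtnf6, -1.19 for Col5a1, -1.13 for Pxdn, -1.13 for Ltbp2, -1.01 for Cercam, -1.0 for Dlk1, -0.96 for Col6a2, -0.92 for Srpx2 and -0.72 for C1qtnf1.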

How the results depend on the processing

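The PI count of 298 became 830 with array weights (289 higher, 541 lower), 172 with only the 10 PI arrays and 527 without the 3 arrays that deviated together, 60-day-PI array 4, 3-day-PI array 5 and 14-day control array 3 (148 higher, 379 lower), and stayed within 1.5 times under the other alternatives, including 199 with the lognormal-normal model. Leaving out 1 array gave 216 to 371. The control count of 12 became 115 with weights, 295 with the lognormal-normal model, 7 with centred arrays, 5 without the 3 arrays, and 0 with the 15 arrays of both times, the filter or the replicate block, and ranged from 0 to 29 when 1 array was left out. The difference count of 11 became 65 with weights, 17 with all probe sets, 6 with centred arrays, 5 with the 15 arrays and 2 with the replicate block, and ranged from 3 to 41. The block gave 226 PI calls, although array numbers did not pair the arrays, and 87.8% of falls shared by controls. That share was 85.8% without the 3 arrays, 85.8% with the filter and 72.2% to 86.2% when 1 array was left out. The cause of these shifts was not tested.

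Of 83 called named genes, 63 kept their call in all 15 fits that left out an array. Mbp turned from -1.12 to 0.12 with the probe set of highest mean. The other changes of sign were in genes that were not called. With weights Cd44 was -0.02, Clock -0.09, Dut 0.02, Elovl5 -0.04, Pcna 0.02 and Ugdh -0.01. Without the 3 arrays Acly was -0.02, Clock -0.13, Dut 0.04, Elovl5 -0.01, Pcna 0.08, RT1-Da 0.09, Rps6 0.02 and Ugdh -0.01, and Rps6 was 0.00 with centred arrays. With 1 array left out the values ran from -0.02 to 0.09 for Acly, -0.13 to 0.10 for Clock, -0.21 to 0.06 for Cry1, -0.14 to 0.04 for Dut, -0.01 to 0.05 for Elovl5, -0.02 to 0.28 for Klf4, -0.14 to 0.08 for Pcna, -0.16 to 0.09 for RT1-Da, -0.01 to 0.04 for Rps29, -0.04 to 0.02 for Rps6, -0.02 to 0.09 for Slc18a2 and -0.02 to 0.05 for Ugdh. With 2 control arrays at 60 days, the precision of the control changes is limited.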
